A study of Mus musculus with 8 samples.

Results

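A set of 9 genes of apoptotic cell uptake was followed in primary mouse microglia, the resident macrophages of the brain. They are the TAM receptors Mertk, Axl and Tyro3, the ligands Gas6 and Pros1, the bridging protein Mfge8, and the engulfment adaptors Elmo1, Dock2 and Gulp1. These 9 genes were chosen by name and found by their Ensembl identifiers among the 52636 genes of the count table, through the symbols of GENCODE vM21. The cells were wild-type C57BL/6 microglia (the study's methods name C57BL/6N pups), shaken off mixed glial cultures of newborn brains and kept in 10% fetal bovine serum with 10 ng/ml CSF-1, a survival factor of microglia. They received vehicle or 5 µg/ml LPS, a bacterial lipopolysaccharide, for 24 h, and RNA was sequenced from 4 biological replicates per group. The labels do not say which replicates came from separate litters, so the p-values measure the spread between these libraries. The comparison asks how LPS altered the RNA of each gene.

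TAM receptors are receptor tyrosine kinases at the surface of phagocytes. They do not touch the dying cell directly. Gas6 and protein S (the product of Pros1) carry a vitamin K-dependent Gla domain that binds phosphatidylserine, the lipid exposed on apoptotic cells, while the other end of the ligand binds the receptor. Gas6 binds all 3 receptors, whereas protein S acts through Mertk and Tyro3. Mfge8 makes a similar bridge from phosphatidylserine to integrins. The adaptor Elmo1 pairs with Dock-family exchange factors to activate the GTPase Rac, which drives the actin of the phagocytic cup, and Gulp1 is an adaptor that binds the tails of engulfment receptors. In the brain, Mertk and Axl are the TAM receptors associated with microglia, and Tyro3 is found mainly in neurons and other glia.

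The 8 libraries held 20071921 to 30604447 counts. Levels are given in CPM, counts scaled to one common library size after correction by TMM, a method that sets the bulk of genes level between libraries. The TMM factors ranged from 1.21 to 1.32 for vehicle and from 0.701 to 0.833 for LPS, so the scaling lowered vehicle levels and raised those after LPS. With total counts as library sizes in place of TMM, the median log2 fold change of all tested genes went from −0.11 to −0.79, and changes that depend on this choice are named below. All 12 microglial markers examined were detected, and their summed level was 13855 to 17086 CPM in vehicle and 6496 to 7023 CPM after LPS, with 9 of the 12 lower and 1 higher. A fall of this kind is measured per unit of RNA, so fewer cells of a type and less RNA per cell cannot be told apart. The microglial marker called higher was Itgam (mean 252 to 965 CPM). Ctss (2823 to 2852 CPM) and Aif1 (126 to 126 CPM) had no call. Summed markers of the oligodendrocyte lineage (9 genes) ranged from 96.4 to 161 CPM in vehicle and from 22.0 to 37.0 CPM after LPS. Those of astrocytes (8 genes) ranged from 20.01 to 46.9 CPM and from 41.0 to 123 CPM. The gap junction gene Gja1, at 28.9 to 98.1 CPM, made up most of this sum in all 4 LPS libraries and was the 1 astrocyte gene called higher, while Gfap, Aqp4 and Aldh1l1 were called lower. Fibroblast and mural cell markers (7 genes) summed to 3.76 to 7.25 CPM in vehicle and 7.57 to 25.0 CPM after LPS. Of these, 3 were tested and 1 was called, the matrix gene Dcn, which went from a mean of 0.136 to 8.90 CPM (edgeR adjusted p = 4.19e-05). The means of the collagen genes Col1a1 (0.530 to 0.0954 CPM) and Col1a2 (0.392 to 0.0272 CPM) and of Pdgfrb and Rgs5 were lower after LPS. Those of Lum and Acta2 were higher. Endothelial markers (7 genes) summed to 31.9 to 82.0 CPM in vehicle and 127 to 217 CPM after LPS, mostly from Flt1. The endothelial cadherin gene Cdh5 went from a mean of 0.948 to 7.504 CPM (edgeR adjusted p = 1.37e-05), while no library held more than 3 counts of Cldn5, Tek or Esam. Kdr had no call (12.3 to 20.7 CPM, edgeR adjusted p = 0.110). Egfl7, too scarce to be tested, was lower on average (0.538 to 0.138 CPM). The part of these other cells in the results was not tested.

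Of the 9 genes, 7 passed the filter on low counts, and 5 of these differed after LPS at an adjusted p under 0.05 in the quasi-likelihood test of edgeR. Of the 5, 4 fell (Gas6, Pros1, Mertk and Mfge8) and 1 (Dock2) was higher with TMM but not with total counts. Of all 13847 tested genes, 64.1% passed the same test, 33.8% as lower and 30.3% as higher, so a call by itself sets no gene apart. With total counts as library sizes 75.4% passed (14.4% higher, 61.1% lower), with the replicate number as a block 65.3% (29.7% higher, 35.6% lower), and both fits also called 5 of the 9 genes, the total counts with Axl as lower in place of Dock2. The vehicle and LPS libraries did not overlap for 5 of the 7 tested genes, 4 lower and 1 higher, and for 60.2% of all tested genes (31.5% lower, 28.7% higher). Gas6 fell 31.3-fold, Pros1 16.5-fold, Mertk 4.70-fold and Mfge8 4.38-fold. The median log2 fold change over the 7 tested genes was −2.13, against −0.11 over all tested genes. Axl and Elmo1 had no call, and Tyro3 and Gulp1 were too scarce to be tested.

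**Figure D1:**
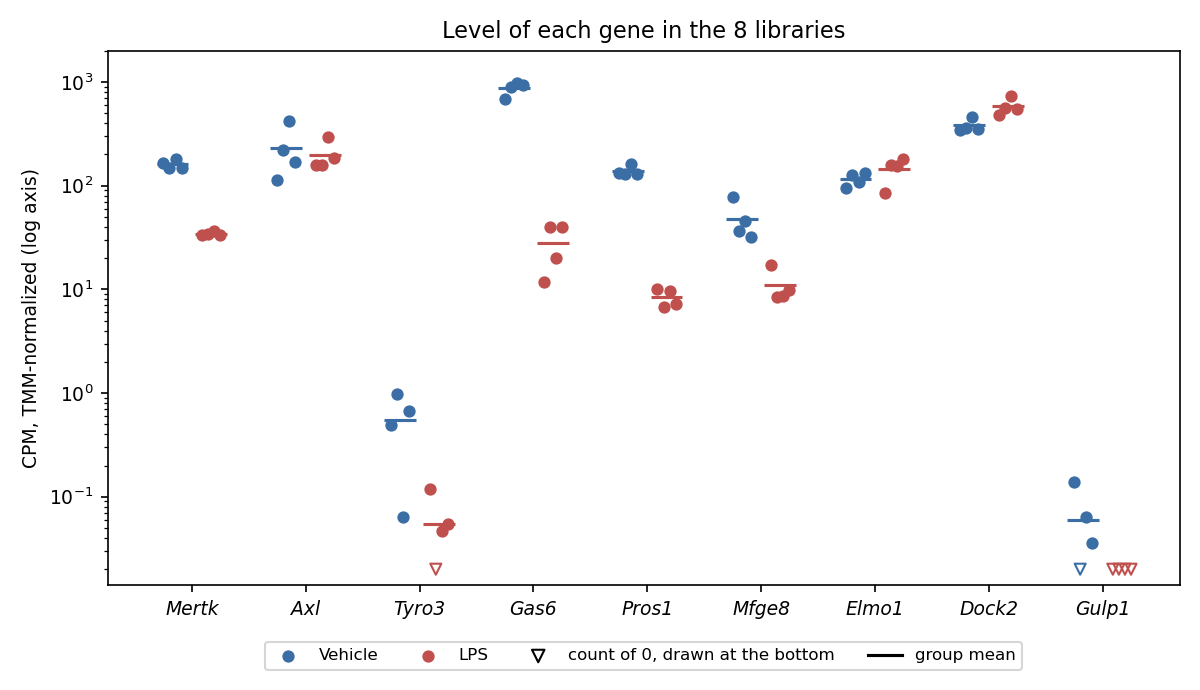
TMM-normalized CPM (log axis) of the 9 genes in the 4 vehicle and 4 LPS libraries, 1 point per library, with the group mean as a bar and counts of 0 as open triangles at the bottom. Gas6, Pros1, Mertk and Mfge8 have every LPS library below every vehicle library, while the groups of Axl and Elmo1 overlap.

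The stretch before the start of transcription is printed for the receptors and ligands that carry the main contrast, namely Mertk, Gas6 and Pros1, which fell, and Axl, which had no call. The 250 bases upstream of each RefSeq start (GRCm38.p6) are written 5′ to 3′ on the strand of the gene, with the GC box GGGCGG, read on either strand, in capitals.
Mertk (chr2:128698665-128698914, plus strand): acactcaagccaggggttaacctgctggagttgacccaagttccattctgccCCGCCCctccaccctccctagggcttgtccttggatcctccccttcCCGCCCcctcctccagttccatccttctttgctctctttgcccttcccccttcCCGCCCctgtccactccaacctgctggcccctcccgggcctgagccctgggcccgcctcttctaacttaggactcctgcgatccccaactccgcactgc
Axl (chr7:25788734-25788983, minus strand): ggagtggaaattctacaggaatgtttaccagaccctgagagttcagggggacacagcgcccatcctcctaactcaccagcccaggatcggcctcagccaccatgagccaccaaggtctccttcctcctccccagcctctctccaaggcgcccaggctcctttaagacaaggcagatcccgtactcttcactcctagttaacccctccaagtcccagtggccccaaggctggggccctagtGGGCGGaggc
Gas6 (chr8:13494536-13494785, minus strand): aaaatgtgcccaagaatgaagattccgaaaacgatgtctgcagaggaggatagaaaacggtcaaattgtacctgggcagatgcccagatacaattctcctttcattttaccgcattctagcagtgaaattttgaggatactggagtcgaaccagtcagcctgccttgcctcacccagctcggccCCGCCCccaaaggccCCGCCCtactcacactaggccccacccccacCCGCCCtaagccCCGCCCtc
Pros1 (chr16:62854057-62854306, plus strand): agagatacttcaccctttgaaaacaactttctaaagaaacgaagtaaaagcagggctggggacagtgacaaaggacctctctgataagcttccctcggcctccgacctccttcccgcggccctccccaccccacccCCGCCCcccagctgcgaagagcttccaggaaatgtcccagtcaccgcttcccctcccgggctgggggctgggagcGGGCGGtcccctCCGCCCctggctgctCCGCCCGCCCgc
A GC box, the element bound by Sp1-type factors, was found 3 times in the Mertk stretch, 4 times in that of Gas6, 5 times in that of Pros1 and 1 time in that of Axl. It is common, since 32.7% of the 32851 promoters of the same length hold at least 1. The share with 3 or more was not counted. Of the other genes, Tyro3 held 3, Mfge8 4, Dock2 0 and Gulp1 1, and Elmo1 3 or 0 depending on the start. The 4 printed stretches were 54.8% to 64.4% GC, against a median of 52.4% over all promoters. Another 6 motifs were searched on both strands, and none was found in these 4 stretches. They were the AP-1 site TGANTCA (6.75% of all promoters), the C/EBP site TTNNGCAA (9.56%), the PU.1 core AGGAAGT (7.69%), the interferon-stimulated response element (2.98%), the NF-kB site (3.90%) and the LXR element (0.0152%). No factor binding was measured here, and a match or its absence describes only these letters.

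Among the receptors, Mertk (ENSMUSG00000014361, chromosome 2, 128698956 to 128802894 of GRCm38, plus strand) fell, Axl had no call and Tyro3 was scarce. Mertk is the receptor most tied to the uptake of apoptotic cells by macrophages. Its level was 167, 148, 180.4 and 149.6 CPM in vehicle replicates 1 to 4, and 33.3, 34.0, 36.6 and 33.3 CPM in LPS replicates 1 to 4. The groups were far apart, and the 4 LPS libraries lay within a few CPM of each other. The mean went from 161 ± 15.3 to 34.3 ± 1.55 CPM (SD, n = 4 each). The log2 fold change was −2.23 with a standard error of 0.10 (edgeR adjusted p = 2.49e-07). In rank of level per kilobase of exon, Mertk went from 846 to 4492 of 13828 tested genes with a length.

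Axl (ENSMUSG00000002602, chromosome 7, 25757273 to 25788705, minus strand), a TAM receptor that is often induced in inflamed macrophages, varied more between cultures than between groups. Its level was 112, 220.3, 419 and 169.6 CPM in vehicle replicates 1 to 4, and 157, 158, 293 and 183 CPM in LPS replicates 1 to 4. All 4 LPS values lay within the vehicle range, and replicate 3 was the highest library of both groups. The means were 230.4 ± 133 and 198 ± 64.5 CPM (SD, n = 4 each), with a log2 fold change of −0.22 (standard error 0.37, 95% interval −1.06 to 0.62, edgeR adjusted p = 0.622). The interval is wide on both sides of 0, so an equal level is not shown. Without vehicle replicate 3 the log2 fold change was 0.29 (adjusted p = 0.358). With total counts as library sizes it was −0.91 (adjusted p = 0.0362), against a median of −0.79 over all genes on that scale.

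Tyro3 (ENSMUSG00000027298, chromosome 2, 119797733 to 119818104, plus strand), the TAM receptor best known from neurons, was nearly absent. It had 14, 28, 2 and 19 counts in vehicle replicates 1 to 4, and 2, 0, 1 and 1 counts in LPS replicates 1 to 4. Vehicle replicate 3 was as low as the LPS libraries. Pooled over the libraries of a group, 63 counts stood against 4, a ratio of CPM of 10.1 (95% exact interval 3.75 to 38.1, which covers counting error only). With no filter on low counts, edgeR gave an adjusted p of 0.00774, where 37% of 25424 genes passed (20.4% lower, 16.6% higher). The oligodendrocyte precursor gene Pdgfra had the same order of vehicle libraries, with 2.84, 16.7, 0.381 and 14.9 CPM in replicates 1 to 4, and 1.99 CPM on average after LPS. The astrocyte genes Slc1a3 (4.66, 11.1, 1.30 and 8.84 CPM) and S100b also had this order. Cspg4 and Mbp, of the oligodendrocyte lineage list, did not, and both were highest in vehicle replicate 1 (24.0 and 107 CPM). The part of other cells in the Tyro3 counts was not tested.

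The make-up of the receptor RNA within a library does not depend on the scaling. Per kilobase of exon, Axl took 36.7%, 56.0%, 66.7% and 49.3% of the summed TAM receptor counts in vehicle replicates 1 to 4. In LPS replicates 1 to 4 it took 80.2%, 80.0%, 87.3% and 82.5%. The LPS libraries all had more Axl than any vehicle library. The mean share was 52.2% ± 12.5 in vehicle and 82.5% ± 3.40 after LPS (SD, n = 4 each), and that of Mertk was 47.7% ± 12.5 and 17.5% ± 3.39. Tyro3 took at most 0.200% in any library. The ratio of Axl to Mertk was 0.581 to 2.00 in vehicle and 4.01 to 6.90 after LPS. These shares are a description, with no test, since the genes were chosen with earlier results known.

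**Figure D2:**
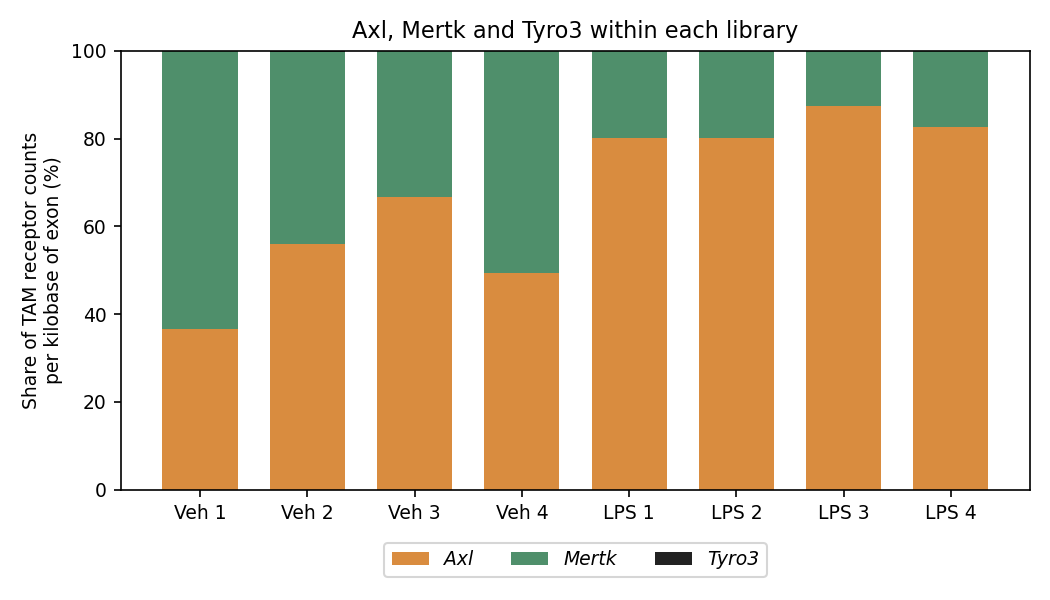
Share of the summed TAM receptor counts per kilobase of exon (%) taken by Axl, Mertk and Tyro3 in each of the 8 libraries, as stacked bars. Axl takes between 36.7% and 66.7% of the vehicle bars and between 80.0% and 87.3% of the LPS bars, and Tyro3, at most 0.200%, is too thin to be seen.

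Of the ligands, Gas6 (ENSMUSG00000031451, chromosome 8, 13465374 to 13494490, minus strand) had the largest fold change of the 7 tested genes. It is the only known ligand of Axl among the vitamin K-dependent proteins and also binds Mertk and Tyro3. Its level was 684, 896, 985 and 936 CPM in vehicle replicates 1 to 4, and 11.8, 40.1, 19.96 and 39.98 CPM in LPS replicates 1 to 4. Even the lowest vehicle library stood far above the highest LPS library. The mean went from 875 ± 133 to 27.95 ± 14.3 CPM (SD, n = 4 each). The log2 fold change was −4.97 with a standard error of 0.40 (edgeR adjusted p = 5.95e-06). Per kilobase of exon Gas6 ranked 55 of 13828 genes in vehicle and 3569 after LPS. Tmem255b on the opposite strand covers 1.33% of its exonic bases.

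Pros1 (ENSMUSG00000022912, chromosome 16, 62854307 to 62929346, plus strand) encodes protein S, also known as an anticoagulant of blood plasma. Its level was 132, 130.4, 162 and 130.4 CPM in vehicle replicates 1 to 4, and 10.1, 6.70, 9.56 and 7.19 CPM in LPS replicates 1 to 4. The spread within each group was small beside the gap between them. The mean went from 139 ± 15.6 to 8.39 ± 1.70 CPM (SD, n = 4 each). The log2 fold change was −4.05 with a standard error of 0.17 (edgeR adjusted p = 1.47e-07). Per kilobase, the ratio of Gas6 to Pros1 was 8.29 to 11.5 in vehicle and 1.87 to 9.60 after LPS. These ranges overlap, and LPS replicates 1 and 3 were lower than the other LPS libraries. The ratio of Gas6 to Axl, a ligand and its receptor, was 4.64 to 12.01 in vehicle and 0.135 to 0.501 after LPS. Gas6 outnumbered Axl in every vehicle library and Axl outnumbered Gas6 in every LPS library, in counts per kilobase.

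Mfge8 (ENSMUSG00000030605, chromosome 7, 79133768 to 79149060, minus strand) encodes the secreted bridge between phosphatidylserine and the integrins alpha-v beta-3 and alpha-v beta-5. Its level was 78.5, 36.5, 45.9 and 31.6 CPM in vehicle replicates 1 to 4, and 16.996, 8.44, 8.72 and 9.90 CPM in LPS replicates 1 to 4. Replicate 1 was the highest of both groups, and the groups did not overlap. The mean went from 48.1 ± 21.1 to 11.01 ± 4.04 CPM (SD, n = 4 each). The log2 fold change was −2.13 with a standard error of 0.33 (edgeR adjusted p = 3.29e-04).

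**Figure D3:**
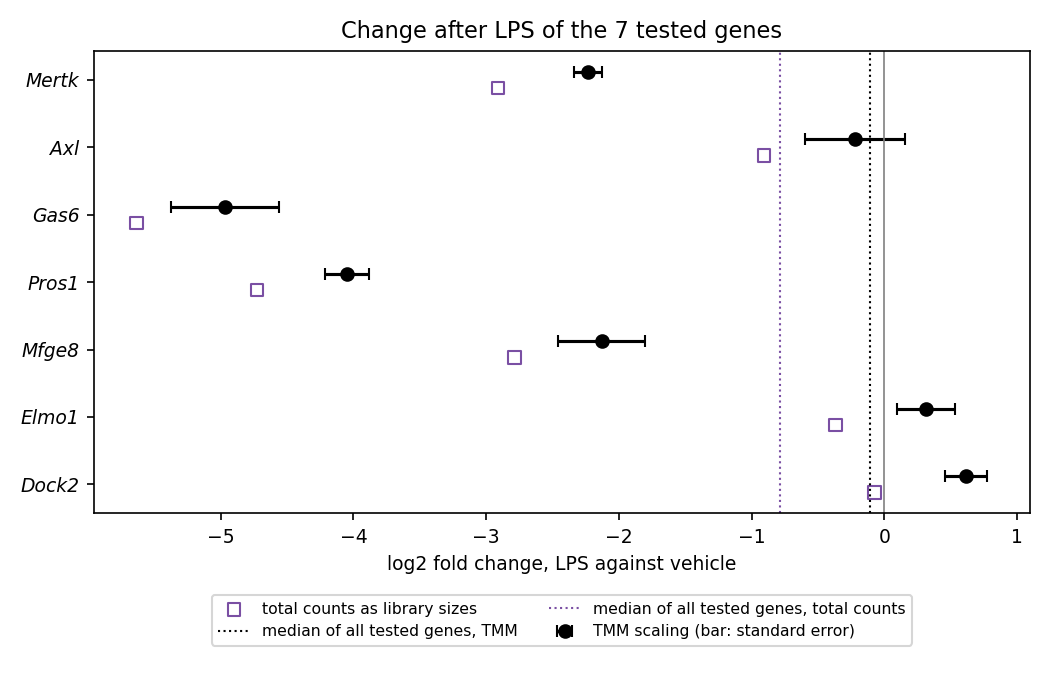
Log2 fold change after LPS of the 7 tested genes with TMM scaling (filled points, bars are standard errors) and with total counts as library sizes (open squares), beside the median of all tested genes on each scale (dotted lines at −0.11 and −0.79). Gas6, Pros1, Mertk and Mfge8 lie well below both medians, whereas Dock2 and Elmo1 change sign with the scaling, from 0.61 to −0.074 and from 0.32 to −0.37.

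Of the engulfment adaptors, Dock2 was higher on the TMM scale, Elmo1 had no call and Gulp1 was scarce. Dock2 (ENSMUSG00000020143, chromosome 11, 34226815 to 34783892, minus strand), the Rac exchange factor of blood cells, had 348, 363, 460.3 and 354 CPM in vehicle replicates 1 to 4. In LPS replicates 1 to 4 it had 480.2, 562, 737 and 554 CPM. Every LPS library was above every vehicle library on this scale. The log2 fold change was 0.61 with TMM (standard error 0.16, edgeR adjusted p = 0.00754) but −0.074 with total counts as library sizes (adjusted p = 0.586). Relative to the median of all tested genes it was 0.72 on both scales. A transcript on the opposite strand covers 4.03% of its exonic bases.

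Elmo1 (ENSMUSG00000041112, chromosome 13, 20090596 to 20608353, plus strand), the partner of Dock proteins, had 95.2, 128, 109 and 131 CPM in vehicle replicates 1 to 4. In LPS replicates 1 to 4 it had 84.2, 157, 154 and 182 CPM. Of the LPS libraries, 3 were above all vehicle libraries and replicate 1 was below them. The log2 fold change was 0.32 with TMM (standard error 0.22, 95% interval −0.17 to 0.80, edgeR adjusted p = 0.226) and −0.37 with total counts (adjusted p = 0.151). Without LPS replicate 1 it was 0.51 (adjusted p = 0.0101). The adaptor Gulp1 (ENSMUSG00000056870, chromosome 1, 44551511 to 44796838, plus strand) had 4, 0, 2 and 1 counts in vehicle replicates 1 to 4 and 0 counts in the 4 LPS libraries. Pooled, the vehicle level was 0.0597 CPM, and a count of 0 over the LPS group allows up to 0.0400 CPM. With no filter on low counts, edgeR gave an adjusted p of 0.114 for Gulp1, and no fold is given at so few counts.

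Compared per kilobase of exon, the vehicle cultures held Gas6 at 344 ± 52.0 CPM per kilobase (SD, n = 4), then Axl at 45.8 ± 26.5, Mertk at 37.2 ± 3.54, Pros1 at 34.0 ± 3.80 and Dock2 at 33.4 ± 4.64. The libraries of these last 4 genes overlapped, so their order is not resolved. Mfge8 at 10.3 and Elmo1 at 9.21 CPM per kilobase also overlapped. After LPS the order was Dock2 at 51.1, Axl at 39.3, Elmo1 at 11.5, Gas6 at 10.97, Mertk at 7.91, Mfge8 at 2.35 and Pros1 at 2.05 CPM per kilobase. Here Dock2 overlapped with Axl, Elmo1 and Gas6 with Mertk, and Mfge8 with Pros1. With the longest transcript as the length, Dock2 came second in vehicle, at 59.5 CPM per kilobase.

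The profiles over the 8 libraries most like that of Mertk, by the root mean square distance of centred log2 CPM, were those of Hsd17b4 (a peroxisomal enzyme of fatty acid breakdown, distance 0.0996), Ctdsp2 (a phosphatase, 0.114) and Pink1 (a mitochondrial kinase, 0.114), among 8009 genes. Their log2 fold changes were −2.14, −2.25 and −2.29. The nearest to Axl were farther off, Dck (deoxycytidine kinase) at 0.284, Sgcb (a sarcoglycan) at 0.323 and Dennd1b (a regulator of Rab GTPases) at 0.332. Their log2 fold changes were 0.11, −0.27 and 0.08, and none of the 3 passed the test (edgeR adjusted p = 0.706, 0.286 and 0.827). The distance covers both groups, so fold changes and calls like those of the receptor follow from the choice and are no separate result.

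Beyond the 9 genes, 6 lists of other genes of apoptotic cell uptake held 69 genes. Of these, 66 were tested, 24 were higher and 27 lower after LPS, and their median log2 fold change was −0.16, near the −0.11 of all tested genes. The 77.3% called stands beside 64.1% of all genes. By list, 57.1% of the tested genes of phagosome maturation and 66.7% of the nuclear receptors were called, near that share. In the other lists it was 80% to 100%. With total counts as library sizes 12 were higher and 39 lower, where 14.4% of all tested genes were higher and 61.1% lower.

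Of 16 receptors and bridges for phosphatidylserine outside the TAM family, 14 were tested. Of these 8 fell and 4 rose (median log2 fold change −1.29), where 33.8% of all tested genes were lower and 30.3% higher. Among the 10 with at least 10 counts in every library 4 were lower and 4 higher (median −0.54), and without LPS replicate 2 or 4 the list had 6 lower (medians −0.77 and −0.73). The integrin chains that receive Mfge8 were among those that fell. Itgb5 went from 386 ± 29.2 to 35.8 ± 5.21 CPM (SD, n = 4 each), with a log2 fold change of −3.43 (edgeR adjusted p = 1.44e-07), and 7.26% of its transcript windows are shared with another gene. Itgb3, a scarcer beta chain, went from 8.73 ± 3.06 to 0.715 ± 0.308 CPM (−3.61, adjusted p = 2.34e-05). The shared alpha chain Itgav, named here after its values were seen, went from 458 ± 119 to 256 ± 66.1 CPM (−0.84, adjusted p = 0.0107), its groups overlapped, and a transcript on the opposite strand covers 5.90% of its exonic bases. Stab1, a scavenger receptor that binds phosphatidylserine, fell by 2.24 on the log2 scale (edgeR adjusted p = 7.39e-05). The 3 named that rose were Thbs1, Timd4 and Anxa1. The matrix protein thrombospondin-1, encoded by Thbs1, went from 82.1 ± 73.6 to 2722 ± 1635 CPM (log2 fold change 5.05, adjusted p = 1.74e-04). With single libraries left out this ran from 4.57 without LPS replicate 3 to 5.88 without vehicle replicate 1. Timd4, a phosphatidylserine receptor of tissue macrophages, went from 5.29 ± 4.07 to 24.9 ± 14.3 CPM (2.23, adjusted p = 0.00495). Its change ran from 1.77 without LPS replicate 3 to 2.95 without vehicle replicate 3. Anxa1, a phospholipid-binding annexin, rose by 1.51 on the log2 scale (adjusted p = 4.34e-04).

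Signalling from Elmo and Dock proteins to Rac leaned the other way. Of its 16 genes 10 were higher and 3 lower, with a median log2 fold change of 0.52. Of all tested genes, 30.3% were higher and 33.8% lower. With total counts 6 of the list were higher and 7 lower, with a median of −0.16. On that scale 14.4% of all tested genes were higher and 61.1% lower. Relative to the median of all tested genes, the median of the list was 0.63 on both scales. Rac2, the Rac GTPase of blood cells, was at 225, 165, 256 and 167 CPM in vehicle and 1659, 1750, 1401 and 1822 CPM after LPS, replicates 1 to 4. It rose by 3.03 on the log2 scale (edgeR adjusted p = 1.21e-06). Ptk2 (focal adhesion kinase) rose by 1.82 and the scaffold Bcar1 by 2.18. Dock1, the widely expressed relative of Dock2, fell from 58.8 ± 2.97 to 10.3 ± 2.64 CPM (SD, n = 4 each), a log2 fold change of −2.51 (adjusted p = 1.63e-06). Within a library, Dock2 exceeded Dock1 per kilobase 4.63- to 6.66-fold in vehicle and 27.6- to 63.3-fold after LPS, whatever the scaling. The exchange factor Vav3 fell by 0.79 and Elmo2, a relative of Elmo1, fell by 0.40.

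**Figure D4:**
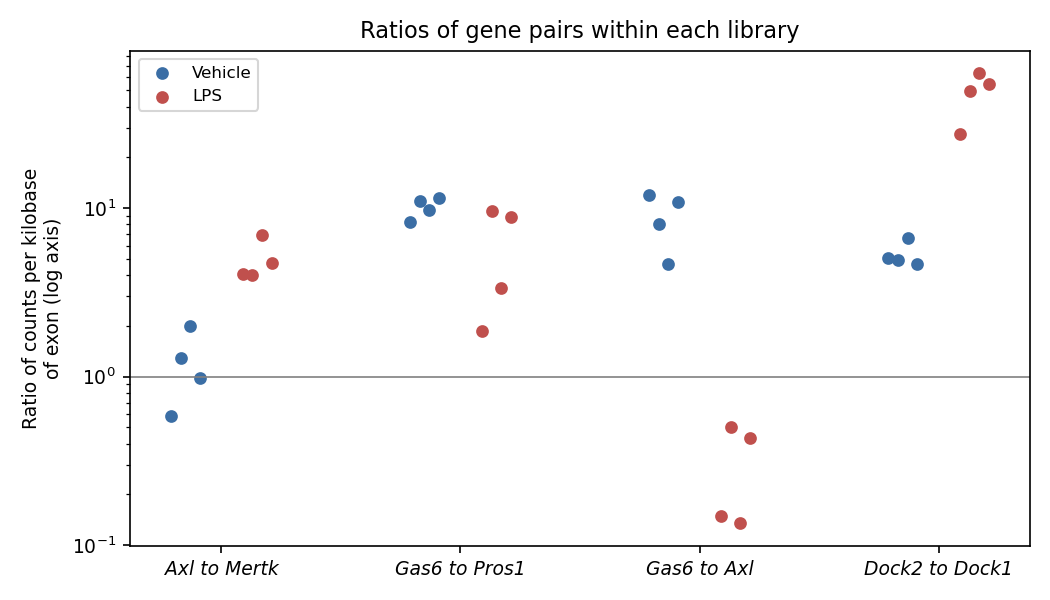
Ratios of counts per kilobase of exon within each library (log axis) for 4 gene pairs, 1 point per library. Axl to Mertk and Dock2 to Dock1 are higher in all LPS libraries, Gas6 to Axl is lower in all of them, and the groups of Gas6 to Pros1 overlap.

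The enzymes that finish or cut the TAM proteins were lower apart from Furin. Ggcx, the carboxylase that makes the Gla domain of Gas6 and protein S, went from 8.27 ± 0.70 to 4.79 ± 0.867 CPM (SD, n = 4 each), a log2 fold change of −0.79 (edgeR adjusted p = 0.00225). Vkorc1, which recycles the vitamin K that Ggcx uses, went from 12.5 ± 0.573 to 2.20 ± 0.674 CPM (−2.49, adjusted p = 8.33e-06), but a gene on the same strand shares 47.7% of its exonic bases and its count is uncertain. Adam10, a protease that sheds membrane proteins, fell by 1.00 and Furin, a proprotein convertase, was higher by 0.89 with TMM, and by 0.23 with total counts (adjusted p = 0.323). Relative to the median of all tested genes Furin was higher by 1.00 with TMM and 1.02 with total counts. Of the 6 genes 5 were lower and 1 higher, where 33.8% of all tested genes were lower and 30.3% higher.

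Among 6 nuclear receptors linked to the sensing of apoptotic cells, 3 fell, 1 rose and 2 had no call, while 2 were higher without LPS replicate 1 and 3 without LPS replicate 3. Of all tested genes, 33.8% were lower and 30.3% higher. Pparg, a lipid-sensing receptor, went from 23.3 ± 10.1 to 0.480 ± 0.207 CPM (SD, n = 4 each), a log2 fold change of −5.56 (edgeR adjusted p = 5.66e-06). Its relative Ppard rose from 22.9 ± 5.67 to 75.6 ± 14.03 CPM (1.72, adjusted p = 4.41e-05). The partner receptors Rxra and Rxrb fell by 1.24 and 0.71. The LXR genes Nr1h3 and Nr1h2 differed by 0.73 and 0.22, with no call (adjusted p = 0.0762 and 0.421).

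Lipid exposure and the signals that hold uptake back changed in both directions. Of 10 genes 3 were higher and 5 lower, the latter 3 without vehicle replicate 2 or 4. Of all tested genes, 30.3% were higher and 33.8% lower. Xkr8, a scramblase that exposes phosphatidylserine in apoptotic cells, went from 8.75 ± 0.783 to 55.0 ± 9.33 CPM (SD, n = 4 each), a log2 fold change of 2.65 (edgeR adjusted p = 6.14e-07). Tmem30a, a chaperone of membrane lipid transporters, was higher by 0.84 with TMM and by 0.16 with total counts (adjusted p = 0.138). Relative to the median of all tested genes Tmem30a was higher by 0.95 with TMM and 0.94 with total counts. Cd47, the do-not-eat-me ligand, rose by 1.09 and its receptor Sirpa fell by 0.82. The surface protein Cd24a fell by 1.52 (adjusted p = 0.0170), a call that was lost without vehicle replicate 2 or 4 (adjusted p up to 0.0574).

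Of 15 genes of phagosome maturation 14 were tested, 5 were higher, 3 lower and 6 had no call, with log2 fold changes from −0.55 to 1.06. Of all tested genes, 30.3% were higher and 33.8% lower with TMM. The lysosomal membrane gene Lamp2 (1.06), the early endosome GTPase Rab5a (0.76) and Ccz1 (0.73), of the complex that activates Rab7, were the 3 largest rises with TMM. With total counts none of the list was higher, 9 were lower and its median went from 0.14 to −0.54. On that scale 14.4% of all tested genes were higher and 61.1% lower, with a median of −0.79. Relative to the median of all tested genes, the median of the list was 0.25 on both scales. Vps18, Lamp1 and Rubcn fell by 0.55, 0.36 and 0.31, and these calls were lost in most or many fits without 1 library, with adjusted p up to 0.1497, 0.146 and 0.0827 and the call kept in 3, 1 and 4 of 8 such fits.

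**Figure D5:**
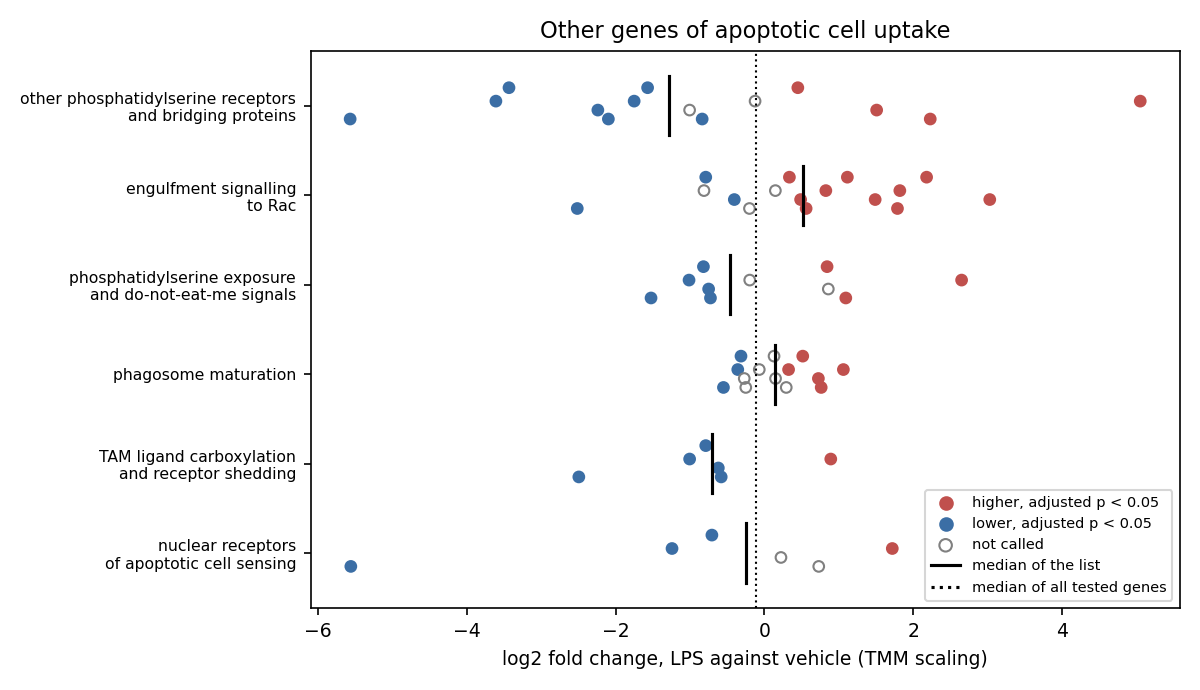
Log2 fold change after LPS (TMM scaling) of the 66 tested genes in 6 lists, 1 point per gene, filled where the edgeR adjusted p was under 0.05, with the median of each list as a bar and that of all tested genes as a dotted line. The list of other phosphatidylserine receptors has its median at −1.29 and that of signalling to Rac at 0.52. With total counts as library sizes the latter becomes −0.16, where the median of all tested genes is −0.79.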

How the data were processed

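RNA of primary microglia treated for 24 h with vehicle or LPS (4 libraries each) was measured. The authors filtered the single-end reads, aligned them to GRCm38 with GSNAP, counted uniquely aligned reads per Ensembl gene with HTSeqGenie, and deposited these as raw counts without normalization. Neither the annotation release nor the use of strand in counting is given in the sources used here. The labels and the study's methods name different library kits and sequencers.

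Symbols, positions and exon lengths came from GENCODE vM21 (52403 of 52636 identifiers matched), and promoters from RefSeq (GRCm38.p6, all 9 genes matched). Counts were tested with edgeR 4.0.16 in R 4.3.3 (TMM, filterByExpr at 10 counts per library and 15 in total, quasi-likelihood test, two-sided), with Benjamini-Hochberg adjustment over 13847 genes and a threshold of 0.05. The script was tested on simulated data in which few genes changed, as many up as down. That test does not show how the scaling behaves where most genes change. Intervals from pooled counts cover counting error only. Levels between genes were compared per kilobase of the union of exons. DESeq2 1.42.0 was an alternative, beside other filters and scalings, a replicate block, and leaving out each library. Total counts as library sizes and the ratios within libraries were added after seeing the data. Tables and figures were made in Python 3.11.15.

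The 9 genes and all lists were chosen with earlier results of these data known. Named genes of a list are up to 3 higher and 3 lower with the largest change among those called whose average log2 CPM reached 2. One gene that this rule names is not reported here. Profiles like those of Mertk and Axl were sought where it reached 3. How far same-numbered libraries lay from their group means correlated across genes, with r of 0.373, 0.196, 0.171 and 0.108 over 8010 genes, all above 0.1. Of the differently numbered libraries, vehicle 2 with LPS 4 (0.146) and vehicle 4 with LPS 2 (0.137) exceeded the lowest of these. No label names a shared culture. All reported tests are without the replicate block, which was an alternative.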

Additional observations from a re-analysis of the deposited data

Results flagged for a closer look

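For each gene and each receptor share, the library farthest from the other 3 of its group was compared with the range of the group, in 23 groups of 4 libraries. Dixon's critical value for such a gap was passed by 3, and chance gives about 1 in 20. Vehicle replicate 3 had 162 CPM of Pros1 against 130.4 to 132 CPM in the other vehicle libraries (gap 0.937 of the range), and 460.3 CPM of Dock2 against 348 to 363 CPM (gap 0.862). LPS replicate 1 had 16.996 CPM of Mfge8 against 8.44 to 9.90 CPM (gap 0.8295). Vehicle replicate 3 also had the highest Axl, at 419 CPM, and the lowest summed markers of astrocytes (20.01 CPM) and of the oligodendrocyte lineage (96.4 CPM) among vehicle libraries. Whether these move together for a shared reason was not tested.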

How the results depend on the processing

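Gas6, Pros1, Mertk and Mfge8 kept their direction and their call under all 14 alternatives. With the replicate block, 9044 genes in all, 5 of the 9 genes and 53 of the pathway genes were called, against 8877, 5 and 51 without it, and the block changed the call of none of the 9. Among the 9 genes and the named genes of the lists, the direction reversed for 3, namely Elmo1 (−0.37) and Dock2 (−0.074) with total counts as library sizes, and Axl (0.29) without vehicle replicate 3. For Axl it ran from −0.47 to 0.29 when single libraries were left out. With total counts the share of calls that were higher fell from 47.2% to 19.0%, or 1988 of 10445, and with upper quartile scaling it was 39.6%. Those scalings shifted the median log2 fold change of all genes by −0.68 and −0.16, and the filter alone by −0.19 when dropped. Leaving out each library gave 8031 to 9314 called genes in all, 5 to 7 of the 9 and 44 to 57 of the pathway genes. Some of these counts include Tyro3, which then passed the filter through its vehicle counts alone, so they do not support a change in it. Among these fits Elmo1 was called only without LPS replicate 1, so that 2 of the 9 were then higher. Shares of the TAM receptors moved by less than 1 SD between libraries with the longest transcript as length or without any 1 library. Depth limits Tyro3 and Gulp1.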
